A study of Homo sapiens with 32 samples.

Results

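Caco-2 cells are an established human colon cancer line that takes on features of small-intestinal absorptive cells. They were cultured without bacteria over agar labelled for inulin or for mucin, and were compared with the same cells over the standard agar. The tested libraries were chosen by their labels: 1 WT library from monoculture with inulin (YCFAinul) and 1 WT library from monoculture with mucin (YCFAmuc), 2 of the 32 libraries of the series. They were set against the 3 WT monoculture libraries, which are named here by the study's library numbers 16, 19 and 29. All 5 hold unedited (WT) Caco-2 cells of 1 line in the HoxBan system, in which cells on a coverslip lie face down on anaerobic agar under culture medium while oxygen enters from above. None of them held bacteria. Because 1 library stands for each medium, the comparison shows what both media share, and every result of it is exploratory. WT coculture with F. prausnitzii (3 libraries), WT stool coculture with inulin or with mucin (1 library each) and WT cells in 2D wells (4 libraries) are used beside them. The sources used here do not say whether the inulin and mucin agars also held the glucose of the standard agar. They also do not say whether the inulin or mucin libraries and the standard libraries were cultured together. Medium and culture run therefore cannot be told apart. No source says whether the replicates are separate cultures, so p-values measure the spread between these libraries, which may be technical. The inulin and mucin libraries are called the supplemented libraries below. This name does not say whether inulin and mucin were added to the glucose or took its place.

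Inulin is a plant fructan that human enzymes do not cleave and that gut bacteria ferment. Mucins are the heavily glycosylated proteins of the mucus layer, which some gut bacteria also use as a source of sugars. Here no bacteria were present to ferment either. Intestinal epithelial cells answer changes in nutrients, oxygen and proteotoxic stress through programs with well-known target genes. The integrated stress response acts through the transcription factor ATF4, the hypoxia response through HIF1, and the aryl hydrocarbon receptor induces CYP1A1. Fasting-type signals raise CPT1A, an enzyme of the entry step of fatty acids into mitochondria.

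RNA was sequenced with QuantSeq, which reads the 3′ ends of transcripts, and the deposited values are counts per gene. The inulin library held 5064210 counts and the mucin library 4206769, against 5370193, 4573016 and 5059971 in WT monoculture. Mitochondrial genes took 7.71% of the counts with inulin and 7.30% with mucin, against 6.36, 15.5 and 11.3% in WT monoculture (exact permutation test, two-sided, p = 0.4 with n = 2 and 3, where 0.1 is the smallest p that 10 arrangements allow). Levels below are CPM, counts per 1e6 of the library size after TMM normalization. The epithelial markers EPCAM (1494 and 1402 CPM in the inulin and mucin libraries, against 1509, 1349 and 1445 CPM in WT monoculture) and CDH1 (802 and 716.3 CPM, against 686.4, 855.1 and 701.1 CPM in WT monoculture) were at similar levels in all 5 libraries. The summed level of 23 enterocyte markers, EPCAM and CDH1 among them, was lower with inulin and mucin, at 5742 and 5677 CPM. It was 6938, 6274 and 6114 CPM in WT monoculture. Of 12 immune cell markers 6 were at 0 in all 5 libraries, PTPRC, CD3E and MS4A1 among them, and the summed level of the list was 22.6 and 19.8 CPM with inulin and mucin, against 13.0 to 14.7 CPM in WT monoculture. Of 10 enteroendocrine markers 4 were at 0 in all 5, CHGA and NEUROD1 among them, and the sum was 5.41 and 5.18 CPM, against 2.18 to 3.26 CPM. The sum of 15 goblet and Paneth cell markers, 3 of them at 0 in all 5, was 431.6 and 419.4 CPM, against 390 to 997.8 CPM. LYZ, lysozyme, had 12.2 and 11.7 CPM, against 5.09, 5.42 and 6.52 CPM in WT monoculture (adjusted p = 0.258, edgeR). It is also a member of the immune cell list and counts in the sum of that list. Of 12 genes that mark fibroblasts and endothelium, COL1A2, DCN, CDH5 and KDR were at 0 in all 5 libraries, and the summed level of the list was 118.6 and 97.4 CPM with inulin and mucin, against 53.5 to 69.0 CPM in WT monoculture. PDGFRA (51.4 and 41.0 CPM, against 13.5, 15.3 and 22.8 CPM in WT monoculture) and COL1A1 (51.0 and 42.3 CPM, against 25.8, 24.5 and 31.0 CPM) made up most of that difference. Neither passed the test described next, while DESeq2 and edgeR's exact test called PDGFRA. The part of these markers in the results was not tested.

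The libraries with inulin and with mucin were very alike. Among 6329 genes with a mean of at least 20 CPM over the 5 libraries, 2 differed more than 2-fold between them, EGR1 and MT-TL1. The 3 pairs of WT monoculture libraries differed more than 2-fold in 159 to 386 of these genes, and the 6 pairs of an inulin or mucin library with a WT monoculture library in 140 to 333. The median absolute log2 difference was 0.13 between the inulin and mucin libraries and 0.23 to 0.31 between WT monoculture libraries. Their counts differed by more than sampling noise, with a chi-square per degree of freedom of 3.87 over 11564 genes, against 20.1 to 38.3 for pairs of WT monoculture libraries. That noise covers counting error only, and the 2 libraries were treated as separate because their labels say so. Both stool libraries differed from each other in 12 of the 6329 genes by more than 2-fold, and the inulin library differed from the stool library with inulin in 13.

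**Figure D1:**
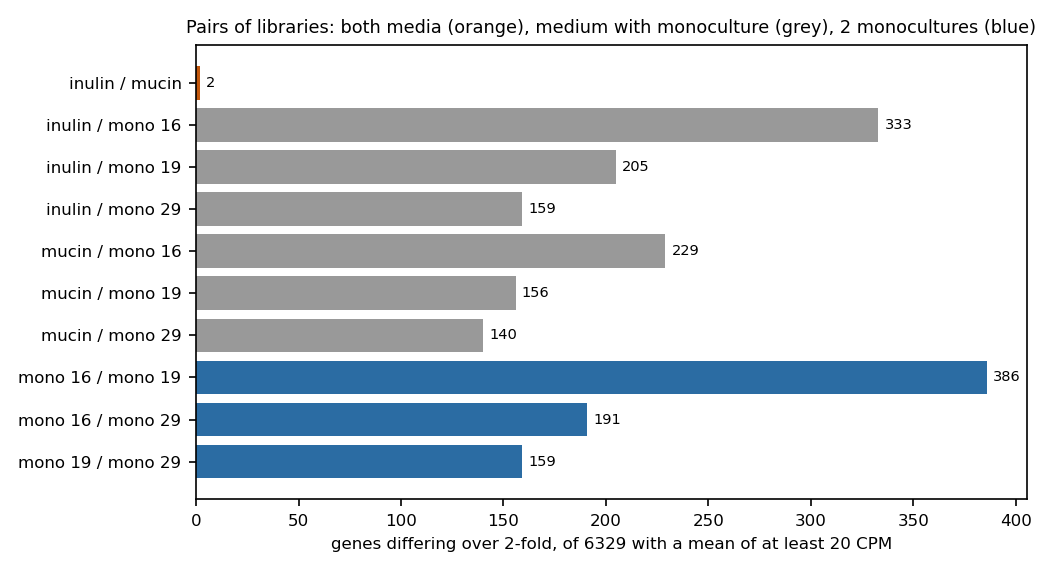
Number of genes that differ more than 2-fold between 2 libraries, of 6329 genes with a mean of at least 20 CPM, for each of the 10 pairs among the inulin, mucin and 3 WT monoculture libraries (mono 16, 19 and 29). The inulin and mucin pair differed in 2 genes, and every other pair in 140 to 386.

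Of 13151 genes tested, 27 were higher with inulin or mucin than in WT monoculture (0.205% of all genes) and 9 were lower (0.0684%), at a Benjamini-Hochberg adjusted p under 0.05 in edgeR's quasi-likelihood test. The test took its spread from 30 libraries, the 28 of the 9 replicated groups of the series and the inulin and mucin libraries as a group of 2. In all 36 called genes (0.274% of those tested) both supplemented libraries lay outside the range of the 3 WT monoculture libraries, on the same side. Over all genes, 15.9% lay above that range in both and 16.1% below, 32% in all, and 13.4% (1760 genes) had an unadjusted p under 0.05, 6.84% higher and 6.55% lower. The called genes changed by 0.73 to 4.1 on the log2 scale, and the median over all genes was -0.03. Both weakly and strongly expressed genes were called, as the plot of fold change against level shows. On the same 30 libraries DESeq2 and edgeR's exact test each called more genes than this test, as the section on processing gives. Their calls of single list members, above and below, belong to those larger numbers and are no result about a list. The 36 calls of the quasi-likelihood test rest on the pooled spread and on each single library. With only the 5 libraries in the fit, 0 genes passed edgeR's quasi-likelihood test in either direction (1573 had an unadjusted p under 0.05), while DESeq2 on the same 5 libraries, a fit added after the data were seen, called 69 higher and 38 lower. Refitted without the inulin library, the test called 2 higher and 0 lower genes, and without the mucin library 1 and 0. It called 13 and 3 without WT monoculture library 16, 4 and 2 without library 19, and 15 and 4 without library 29, and of the 36 genes these 3 fits called 10, 6 and 15. Without the inulin or the mucin library, 2 and 1 of the 36 were still called.

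**Figure D2:**
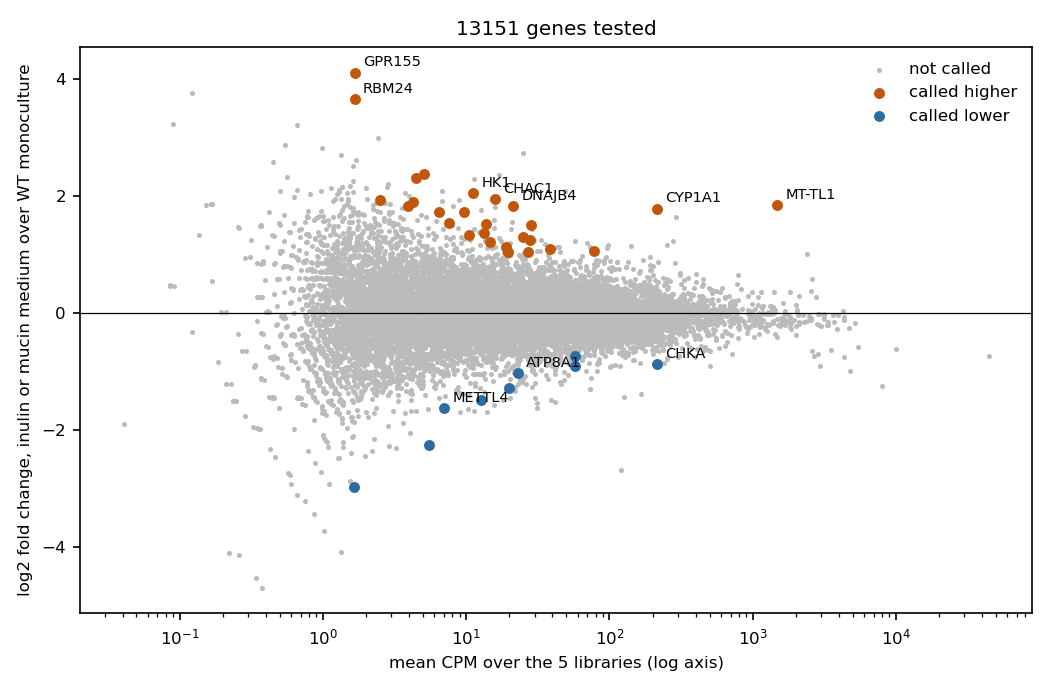
Log2 fold change with inulin or mucin over WT monoculture against the mean level of the 5 libraries in CPM (log axis), for 13151 genes. Called genes are orange (27 higher) or blue (9 lower), and the others are grey.

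The co-chaperone gene DNAJB4 and the integrated stress response genes CHAC1 and CEBPB rose. DNAJB4, an HSP40-type co-chaperone, had 42.1 and 32.2 CPM with inulin and mucin, against 9.99, 8.71 and 12.8 CPM in WT monoculture (log2 fold change 1.82 ± 0.27 SE, adjusted p = 0.0037, edgeR). CHAC1, which degrades glutathione and is a well-known ATF4 target, had 28.4 and 28.6 CPM, against 6.18, 6.83 and 9.16 CPM in WT monoculture (1.94 ± 0.33, adjusted p = 0.0073, edgeR). Both supplemented libraries held over 3 times the highest WT monoculture level for CHAC1, and for DNAJB4 the groups were also well apart. CEBPB, a transcription factor that is itself an ATF4 target and a partner of it, had 108 and 117.5 CPM, against 59.2, 53.5 and 49.3 CPM in WT monoculture (1.06 ± 0.20, adjusted p = 0.022, edgeR). FICD, which AMPylates the endoplasmic reticulum chaperone BiP, and DNAJC12, another HSP40-type co-chaperone, also rose, at 8.11 and 7.20 CPM against 1.64, 1.41 and 3.06 CPM for FICD, and 9.66 and 7.43 CPM against 1.09, 1.65 and 2.44 CPM for DNAJC12. JDP2, a bZIP factor of the AP-1 family, rose by 1.05 on the log2 scale. Of these genes, FICD, DNAJC12 and JDP2 were picked after their values were seen.

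Of 32 tested members of the integrated stress response list, CHAC1 and CEBPB rose and none fell, 25 had a positive fold change (47% of all genes did), 9 lay above the WT monoculture range in both supplemented libraries and 1 below it (15.9 and 16.1% of all genes), and the median log2 fold change was 0.23. GDF15, a secreted stress cytokine, had 217.4 and 255.4 CPM, against 95.6, 112.6 and 171.7 CPM in WT monoculture, and SLC7A11, the cystine importer, had 62.2 and 44.1 CPM, against 34.5, 13.9 and 34.6 CPM. Neither passed the test (adjusted p = 0.145 and 0.176, edgeR). Of 20 genes of the unfolded protein response none was called by edgeR's quasi-likelihood test, its exact test or DESeq2 and 1 had an unadjusted p under 0.05, 18 had a positive fold change, 2 lay above the WT monoculture range in both supplemented libraries and 0 below, and the median was 0.15. HERPUD1, an endoplasmic reticulum membrane protein of that response, had 115.5 and 118.1 CPM, against 49.2, 66.9 and 73.3 CPM in WT monoculture (log2 fold change 0.89 ± 0.29, adjusted p = 0.151, edgeR). Among 12 heat shock and chaperone genes 6 had a positive and 6 a negative fold change, with a median of -0.01, and 5 lay above and 1 below the WT monoculture range in both supplemented libraries. None was called by the quasi-likelihood test and 3 had an unadjusted p under 0.05, all higher, while DESeq2 and the exact test called DNAJB1 and BAG3. DNAJB1 missed the threshold narrowly, with 92.9 and 86.0 CPM, against 63.2, 46.6 and 51.9 CPM in WT monoculture (log2 fold change 0.73 ± 0.17, adjusted p = 0.052, edgeR).

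Sequences upstream of the called genes were searched for short motifs of stress and hypoxia factors, and those of CHAC1 and HK1 are shown because they hold the motif TGATGNAA of amino acid and ATF4 response elements. The windows are the 250 bases before the RefSeq gene start on GRCh38.p14, 5′ to 3′ on the strand of the gene, with the match, which lies on the opposite strand, in capitals. The windows are chr15:40953221-40953470 for CHAC1 and chr10:69269750-69269999 for HK1, both on the plus strand. For each gene the first listed start was used, and counts of 3′ ends do not show which start is in use. The CHAC1 window lies inside the gene by GENCODE release 29, where the gene starts at 40952962.
CHAC1: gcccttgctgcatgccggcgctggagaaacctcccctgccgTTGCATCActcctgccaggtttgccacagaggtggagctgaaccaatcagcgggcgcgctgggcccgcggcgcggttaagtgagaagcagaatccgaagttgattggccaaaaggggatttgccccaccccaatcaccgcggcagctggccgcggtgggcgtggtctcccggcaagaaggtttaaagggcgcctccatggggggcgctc
HK1: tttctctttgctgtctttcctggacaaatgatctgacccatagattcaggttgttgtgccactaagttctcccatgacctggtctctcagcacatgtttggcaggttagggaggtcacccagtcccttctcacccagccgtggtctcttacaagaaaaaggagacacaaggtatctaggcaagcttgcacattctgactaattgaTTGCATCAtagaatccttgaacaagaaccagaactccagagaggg
Of the 26 called genes with a window, 2 held TGATGNAA on either strand (7.69%), against 3.19% of 27305 windows. The hypoxia response core ACGTG was in 6 of the 26 (23.1%), against 18.7% of all windows, and the E-box CACGTG, which holds ACGTG, was in 4 (15.4%), those of ELOVL4, DNAJC12, STX2 and TRIM25, against 6.49%. The metal response motif TGCNCNC was in 10 (38.5%), against 48.4% of all windows. The AP-1 motif TGACTCA was in 1 (3.85%), against 4.16%, an NF-kB motif of 10 letters in 1, against 1.73%, and the cAMP response motif TGACGTCA in 1, against 1.77%. Both forms of the serum response motif searched were in 0, against 0.03 and 0.05% of all windows. A match is a description of the sequence and not a bound site.

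CPT1A (chromosome 11, 68754620 to 68844410, GRCh38), the entry step of fatty acids into mitochondrial oxidation, had 17.0 and 16.7 CPM with inulin and mucin, against 6.00, 3.53 and 5.50 CPM in WT monoculture (log2 fold change 1.73 ± 0.30, adjusted p = 0.0083, edgeR). DGAT2, which makes triglyceride in its last step, had 23.8 and 21.6 CPM, against 8.54, 7.07 and 8.15 CPM (1.51 ± 0.26, adjusted p = 0.0073, edgeR). ELOVL4, an elongase of very long-chain fatty acids, had 15.3 and 9.68 CPM, against 4.00, 3.77 and 5.09 CPM in WT monoculture. For all 3 genes the supplemented libraries were apart from the standard ones. CHKA, choline kinase, the first step from choline to phosphatidylcholine, fell to 136 and 151 CPM, against 273.6, 249.6 and 266.4 CPM in WT monoculture (-0.88 ± 0.19, adjusted p = 0.032, edgeR). ATP8A1, a flippase that moves phospholipids to the inner leaflet of membranes, fell to 13.5 and 14.9 CPM, against 29.4, 28.0 and 28.9 CPM (-1.02 ± 0.20, adjusted p = 0.022, edgeR).

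CPT1A was alone among 29 fatty acid oxidation and ketogenesis genes in passing the test, and the median of that list was -0.07. In both supplemented libraries 5 members lay above and 7 below the WT monoculture range, beside 15.9 and 16.1% of all genes. CREB3L3, a liver and gut transcription factor of fasting lipid metabolism, had 16.8 and 27.2 CPM, against 4.18, 9.18 and 6.31 CPM in WT monoculture, and PLIN2, a lipid droplet coat protein, had 247.4 and 272.7 CPM, against 146.4, 183 and 111.6 CPM. Neither passed the test (adjusted p = 0.138 and 0.181, edgeR). DGAT2 was alone in passing among 19 genes of lipoprotein and triglyceride assembly, whose median was -0.01. None of 29 genes of cholesterol synthesis and uptake was called by edgeR's quasi-likelihood test, its exact test or DESeq2, 1 had an unadjusted p under 0.05, and the median was -0.15. IDI1, an enzyme of isoprenoid synthesis, was that gene, at 151.4 and 145.6 CPM, against 193, 191.5 and 201.4 CPM in WT monoculture.

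HK1 (chromosome 10, 69269984 to 69401884, GRCh38), a hexokinase of the first step of glycolysis that most tissues express, had 23.0 and 18.0 CPM, against 3.45, 4.47 and 6.92 CPM in WT monoculture (log2 fold change 2.05 ± 0.40, adjusted p = 0.022, edgeR). It was the one called gene of 24 glycolysis genes. In that list 8 members lay above the WT monoculture range in both supplemented libraries and 1 below, a share of above-range members over the 15.9% of all genes, and the median was 0.15. ALDOA, an aldolase, had 440.7 and 441.3 CPM, against 284.3, 382 and 212.4 CPM in WT monoculture, PGAM1, a phosphoglycerate mutase, had 24.0 and 23.6 CPM, against 15.4, 9.66 and 14.3 CPM, and PFKFB3, which makes the activator of phosphofructokinase, had 33.0 and 24.3 CPM, against 14.5, 15.1 and 13.6 CPM. None of these 3 passed the test (adjusted p of 0.24 to 0.274, edgeR). Of 12 genes of glucose and sugar transport none was called by edgeR's quasi-likelihood test, its exact test or DESeq2 and 4 had an unadjusted p under 0.05, with 3 of them higher. SLC2A3, the glucose transporter GLUT3, had 3580 and 3225 CPM, against 1416, 1574 and 2094 CPM in WT monoculture (1.01 ± 0.36, adjusted p = 0.204, edgeR), and the lactate exporter SLC16A3 had 19.1 and 21.8 CPM, against 6.90, 14.8 and 7.13 CPM. Of 16 glucose-responsive targets of MondoA and ChREBP, factors that sense sugar phosphates, none was called by any of the 3 tests, 0 had an unadjusted p under 0.05, and the median was 0.02.

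CYP1A1 (chromosome 15, 74719542 to 74725610, GRCh38), the drug-metabolizing enzyme induced by the aryl hydrocarbon receptor, had 412.9 and 337.5 CPM with inulin and mucin, against 121.7, 139.6 and 66.2 CPM in WT monoculture (log2 fold change 1.78 ± 0.36, adjusted p = 0.027, edgeR). In coculture with F. prausnitzii it had 103.8, 101.7 and 103.3 CPM, in both stool libraries 315.6 (inulin) and 230.8 CPM (mucin), and in 2D wells a median of 3.55 CPM (1.89 to 4.79). All 8 tested genes of the aryl hydrocarbon receptor list, which also holds the receptor gene, had a positive fold change (47% of all genes did). In both supplemented libraries 4 lay above the WT monoculture range and 0 below it (15.9 and 16.1% of all genes). The median was 0.30, but only CYP1A1 passed. AHR, the receptor itself, had 99.1 and 103.1 CPM, against 76.7, 91.4 and 85.9 CPM in WT monoculture, and NQO1, a quinone reductase that the receptor and NRF2 both regulate, had 321.3 and 268.9 CPM, against 278.2, 229.1 and 256.2 CPM (adjusted p = 0.805 and 0.777, edgeR).

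**Figure D3:**
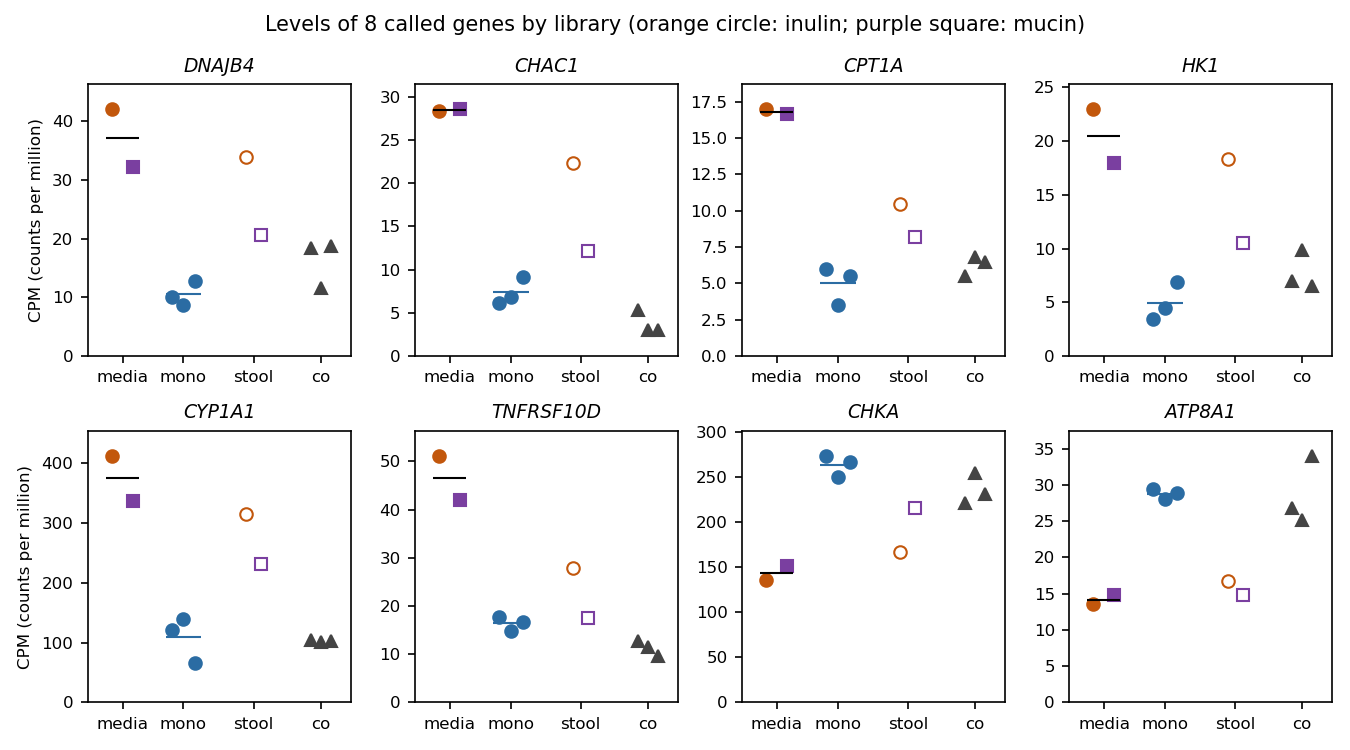
CPM of 8 called genes in each library, with inulin (filled orange circle) and mucin (filled purple square), WT monoculture (blue, mono), stool coculture with inulin or mucin (open symbols) and coculture with F. prausnitzii (grey triangles, co). Lines are means of the inulin and mucin libraries and of the 3 WT monoculture libraries. The filled orange and purple points lie above all blue points for DNAJB4, CHAC1, CPT1A, HK1, CYP1A1 and TNFRSF10D, and below them for CHKA and ATP8A1.

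TNFRSF10D, a decoy receptor for the death ligand TRAIL, had 51.2 and 42.1 CPM, against 17.6, 14.8 and 16.7 CPM in WT monoculture (log2 fold change 1.50 ± 0.26, adjusted p = 0.0073, edgeR). TMEM165, a Golgi ion transporter needed for glycosylation, had 40.0 and 37.8 CPM, against 20.2, 16.0 and 20.4 CPM (1.04 ± 0.20, adjusted p = 0.022, edgeR). GOLPH3L, a Golgi protein, had 65.5 and 46.8 CPM, against 28.0, 26.9 and 24.4 CPM in WT monoculture, and STX2, a plasma membrane syntaxin, 23.8 and 20.9 CPM, against 6.90, 11.1 and 11.2 CPM. None of 15 tested genes of mucins and glycosylation was called by edgeR's quasi-likelihood test, its exact test or DESeq2, 0 had an unadjusted p under 0.05, and the median was -0.01. MATCAP2 (9.08 and 13.1 CPM, against 2.18, 4.47 and 3.46 CPM in WT monoculture), GFOD2 (21.6 and 20.5 CPM, against 7.99, 8.71 and 7.94 CPM) and FAM220A (26.8 and 29.0 CPM, against 13.5, 10.4 and 14.5 CPM) also rose, and these are genes of little-studied function.

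The other called genes that were higher were named after their values were seen. They include PLAU, the urokinase-type plasminogen activator, with 4.06 and 4.95 CPM, against 1.09, 1.18 and 1.22 CPM in WT monoculture, and JAG2, a Notch ligand, with 6.18 and 7.65 CPM, against 1.82, 2.36 and 1.63 CPM. TRIM25, a ubiquitin ligase of the RIG-I pathway, had 44.6 and 32.4 CPM, against 17.3, 11.1 and 18.3 CPM in WT monoculture, and NXPE3 rose by 1.33 on the log2 scale. RBM24, an RNA-binding protein, had 37 counts in the supplemented libraries together, against 4 in WT monoculture, and GPR155 had 38, against 3, too few for a stable fold change. PMEPA1, a feedback inhibitor of TGF-beta signalling, had 10.6 and 9.23 CPM, against 2.00, 1.18 and 2.44 CPM in WT monoculture, and SOCS7, of the suppressor of cytokine signalling family, had 44.6 and 41.0 CPM, against 17.1, 15.5 and 21.4 CPM. MT-TL1, a mitochondrial tRNA gene between MT-RNR2 and MT-ND1, had 1343 and 3849 CPM, against 727.7, 416.1 and 1040 CPM in WT monoculture. Mature tRNAs carry no poly(A) tail, and whether these reads come from the neighbouring ribosomal RNA was not tested. MT-RNR2 itself did not pass, at 34830 and 28820 CPM, against 27020, 72120 and 59170 CPM.

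METTL4, an adenine methyltransferase, had 3.28 and 2.93 CPM with inulin and mucin, against 10.4, 9.89 and 8.76 CPM in WT monoculture (log2 fold change -1.63 ± 0.28, adjusted p = 0.0073, edgeR). TOR1A, an AAA+ ATPase of the endoplasmic reticulum and nuclear envelope, had 9.27 and 12.2 CPM, against 28.5, 21.7 and 27.9 CPM. FBXO9, a substrate adaptor of an SCF ubiquitin ligase, had 37.5 and 37.8 CPM, against 70.3, 71.1 and 70.3 CPM, and SIPA1L1, a GTPase-activating protein for Rap, had 42.3 and 39.8 CPM, against 75.0, 59.6 and 69.4 CPM. In FBXO9 the libraries of each group were very close and the groups well apart. The long noncoding LINC02562 fell to 5.21 and 6.98 CPM, against 18.5, 17.4 and 14.9 CPM in WT monoculture, and the antisense gene FAM131B-AS2 to 1.74 and 1.58 CPM, against 5.27, 8.48 and 10.6 CPM. AC016957.2, a noncoding gene named after its values were seen, had 3 counts with inulin and mucin together, against 39 in WT monoculture. MDC1, a DNA damage mediator, and AASS, which starts lysine breakdown, missed the threshold (adjusted p = 0.052 for each, edgeR), at 15.5 and 16.4 CPM, against 25.4, 27.6 and 31.4 CPM in WT monoculture for MDC1, and 10.8 and 12.4 CPM, against 25.4, 17.4 and 26.5 CPM for AASS. By the GENCODE release 29 annotation, exons of 14 of the 36 called genes overlap a gene on the opposite strand and those of 4 overlap one on the same strand, among them DNAJB4, MATCAP2, CEBPB, HK1, DGAT2 and CHKA. Because no source states whether the counting used strand, reads of such pairs cannot be told apart.

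No HIF1 target outside glycolysis passed edgeR's quasi-likelihood test among 35 tested, while 7 had an unadjusted p under 0.05, all higher, and DESeq2 and edgeR's exact test each called EGLN1. Of the 35, 31 had a positive fold change, against 47% of all genes, and the median was 0.42. In both supplemented libraries 13 lay above the WT monoculture range and 0 below it (15.9 and 16.1% of all genes). The summed level of all 39 listed genes was 4631 and 4419 CPM with inulin and mucin, against 3371, 5092 and 2537 CPM in WT monoculture. The sums of both groups thus overlapped. EGLN1, the main oxygen-sensing prolyl hydroxylase and a target of HIF1, had 25.5 and 35.1 CPM, against 15.8, 17.9 and 17.9 CPM in WT monoculture (log2 fold change 0.81 ± 0.21, adjusted p = 0.083, edgeR). HILPDA, a lipid droplet protein induced by hypoxia, had 169.2 and 122.6 CPM, against 56.5, 69.2 and 70.1 CPM (1.16 ± 0.33, adjusted p = 0.105, edgeR). ANKRD37 had 117.4 and 62.6 CPM, against 7.09, 29.9 and 27.3 CPM in WT monoculture (2.09 ± 0.66, adjusted p = 0.142, edgeR). In each of these genes both supplemented libraries lay above all 3 WT monoculture libraries, and none is past the threshold.

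IL18, the interleukin that the study is about, had 17.4 and 18.0 CPM with inulin and mucin, against 8.72, 6.12 and 12.6 CPM in WT monoculture (log2 fold change 0.94 ± 0.34, adjusted p = 0.198, edgeR). Without bacteria, both libraries were thus above the 3 standard ones, but the difference did not pass the test. In coculture with F. prausnitzii IL18 had 17.4, 9.82 and 8.34 CPM, and in both stool libraries 20.7 (inulin) and 9.62 CPM (mucin). CASP4, an inflammatory caspase, had 30.1 and 28.4 CPM, against 43.6, 60.3 and 38.9 CPM in WT monoculture (-0.70 ± 0.24, adjusted p = 0.168, edgeR). Of 7 tested genes of the inflammasome and IL-18 pathway none was called by edgeR's quasi-likelihood test, its exact test or DESeq2, and 2 had an unadjusted p under 0.05, 1 in each direction. HIF1A itself had 213.4 and 167.9 CPM, against 174.1, 170.3 and 215 CPM in WT monoculture, with overlapping groups (0.03 ± 0.20, adjusted p = 0.972, edgeR). The ratio of HIF1A to the summed level of EGLN1, EGLN2, EGLN3, VHL and HIF1AN, its oxygen-dependent inhibitors, was 1.70 and 1.27, against 1.52, 1.48 and 1.97 in WT monoculture (exact permutation test, two-sided, p = 0.6 with n = 2 and 3, smallest possible p 0.1).

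Of 18 autophagy and lysosome genes tested, 17 had a positive fold change (47% of all genes did), 7 lay above the WT monoculture range in both supplemented libraries and 0 below (15.9 and 16.1% of all genes), and the median was 0.34. None passed edgeR's quasi-likelihood test, its exact test or DESeq2, and 5 had an unadjusted p under 0.05. RRAGD, a Rag GTPase of lysosomal nutrient sensing, had 16.4 and 11.9 CPM, against 4.54, 5.42 and 5.70 CPM in WT monoculture (log2 fold change 1.44 ± 0.41, adjusted p = 0.111, edgeR). GABARAPL1, an autophagosome protein of the ATG8 family, had 70.9 and 77.2 CPM, against 39.4, 49.7 and 45.4 CPM, and the lysosomal membrane protein LAMP2 had 230.8 and 190.1 CPM, against 153, 159.4 and 172.5 CPM. Of 27 targets of NRF2, the antioxidant factor, none was called by the quasi-likelihood test, 6 had an unadjusted p under 0.05 and the median was 0.12, while DESeq2 and the exact test called TXNRD1. TXNRD1, thioredoxin reductase, had 295.5 and 249.1 CPM, against 155.2, 94.4 and 170.7 CPM in WT monoculture (0.96 ± 0.26, adjusted p = 0.089, edgeR), and ABCC3, an organic anion exporter, had 11.0 and 13.7 CPM, against 25.4, 30.6 and 17.3 CPM.

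Of 32 proliferation genes tested, 27 had a negative fold change, beside 6973 of all 13151 genes, and the median was -0.20. In both supplemented libraries 12 lay below the WT monoculture range (16.1% of all genes did) and 1 above. None passed edgeR's quasi-likelihood test, its exact test or DESeq2, and 5 had an unadjusted p under 0.05, all lower. Over all genes 13.4% had such a p, 6.55% of them lower genes. MKI67, a marker of cycling cells, had 189.4 and 161.6 CPM, against 261.1, 279.3 and 366.2 CPM in WT monoculture (log2 fold change -0.78 ± 0.28, adjusted p = 0.202, edgeR). AURKA, a mitotic kinase, had 273.3 and 284.2 CPM, against 441.9, 393.3 and 411.2 CPM (-0.58 ± 0.18, adjusted p = 0.142, edgeR). Among 23 cell cycle inhibitors and p53 targets, none was called by the quasi-likelihood test and 7 had an unadjusted p under 0.05, and DESeq2 and the exact test called GADD45B and BTG1. GADD45B, a growth arrest and stress gene, had 51.0 and 73.4 CPM, against 78.3, 247.3 and 182.1 CPM in WT monoculture (-1.44 ± 0.35, adjusted p = 0.060, edgeR). BTG1, an antiproliferative gene, had 298.9 and 302.2 CPM, against 145.7, 196.6 and 148.7 CPM (0.88 ± 0.22, adjusted p = 0.063, edgeR).

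Among immediate early genes, DUSP6, the feedback phosphatase of ERK, had 63.2 and 104.4 CPM, against 252.4, 199.7 and 205.5 CPM in WT monoculture, and MYC had 29.0 and 49.7 CPM, against 139.2, 62.4 and 86.1 CPM. JUND, an AP-1 subunit, had 122 and 140.6 CPM, against 53.2, 86.9 and 91.6 CPM, and SGK1 had 32.3 and 33.5 CPM, against 11.1, 26.4 and 23.4 CPM. None of the 30 genes tested was called by the quasi-likelihood test, and 6 had an unadjusted p under 0.05, 4 higher and 2 lower. Of the 30, 17 had a positive fold change, beside 47% of all genes, and the median was 0.17. The exact test called 0 and DESeq2 called DUSP6 (adjusted p = 0.121 for DUSP6 in the quasi-likelihood test of edgeR). Of 32 interferon-stimulated genes 23 had a positive fold change (47% of all genes did), 7 lay above the WT monoculture range in both supplemented libraries, a share close to the 15.9% of all genes, and 1 below (16.1%), and the median was 0.26. None was called by the quasi-likelihood test or DESeq2, 3 had an unadjusted p under 0.05, and the exact test called IFI6. IFI6 had 53.9 and 48.4 CPM, against 5.63, 4.24 and 13.0 CPM in WT monoculture (log2 fold change 2.73 ± 0.81, adjusted p = 0.122, edgeR), and 51.2 and 51.1 CPM in the stool libraries with inulin and mucin, against 8.38, 14.6 and 4.17 CPM in coculture with F. prausnitzii. IFI27 had 10.8 and 14.4 CPM, against 2.54, 2.83 and 3.46 CPM in WT monoculture.

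Of 15 mitochondrially encoded protein and ribosomal RNA genes, a list without the called tRNA gene MT-TL1, 14 had a negative fold change and the median was -0.69. In 0 of them did the groups stay apart, while they did in 32% of all genes. None was called or had an unadjusted p under 0.05 in edgeR's quasi-likelihood test (DESeq2 and the exact test also called 0). MT-CO3 had 4604 and 4132 CPM, against 4177, 19280 and 7499 CPM in WT monoculture, and the highest of these was library 19, with its mitochondrial share of 15.5%. Of 40 nuclear genes of oxidative phosphorylation 29 had a negative fold change (median -0.07), and of 41 ribosomal protein genes 32 did (median -0.08), with 0 called in either list by any of the 3 tests and 1 and 0 with an unadjusted p under 0.05. Epithelial junction genes had a median of -0.03, 3 of 28 had an unadjusted p under 0.05, and none was called by any of the 3 tests. TJP1, the scaffold ZO-1 of tight junctions, had 97.1 and 90.9 CPM, against 139.2, 109.3 and 183.1 CPM in WT monoculture (log2 fold change -0.61 ± 0.20, adjusted p = 0.149, edgeR). Of 21 enterocyte markers 15 had a negative fold change (median -0.11, 0 called by any of the 3 tests, 1 with an unadjusted p under 0.05). In both supplemented libraries 3 of them lay below the WT monoculture range and 1 above it (16.1 and 15.9% of all genes). Over all genes, 6973 of 13151 had a negative fold change and 13.4% had an unadjusted p under 0.05.

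**Figure D4:**
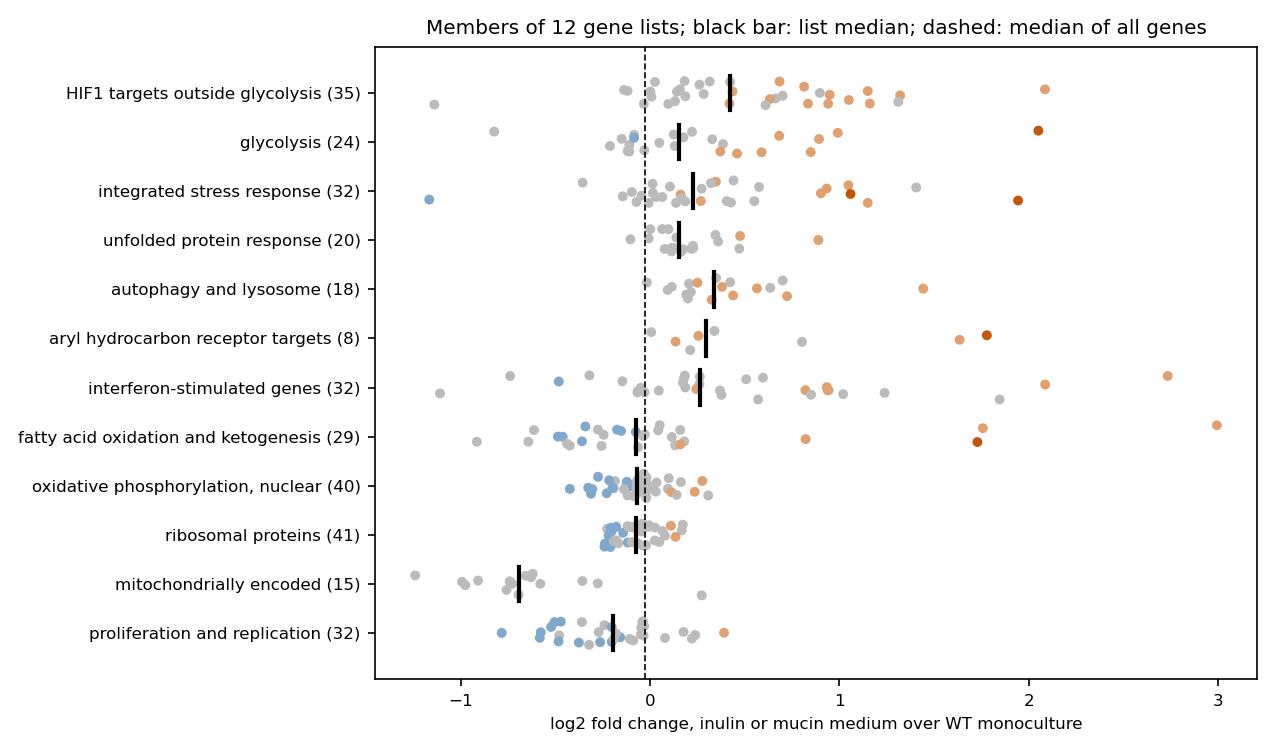
Log2 fold change with inulin or mucin over WT monoculture for the tested members of 12 gene lists (number tested in brackets). Each point is a gene: dark orange if called, light orange or light blue if both supplemented libraries lay above or below all 3 WT monoculture libraries without a call, grey otherwise. Black bars are list medians, from 0.42 for HIF1 targets outside glycolysis to -0.69 for mitochondrially encoded genes, and the dashed line is the median of all genes (-0.03).

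Differences between inulin and mucin rest on 1 library each and were not tested. Of 6538 genes with at least 20 CPM in one of both libraries, 344 were higher and 495 lower with mucin than with inulin by more than the whole range of the 3 WT monoculture libraries. No share for libraries of the same medium was worked out beside these counts, so they are no result about inulin or mucin. EGR1, an immediate early transcription factor, had 100.6 CPM with mucin and 44.4 CPM with inulin, and 119.9 to 160.8 CPM in WT monoculture, so the inulin library was the one farther from the standard libraries. ZFP36L2, an RNA-binding protein that promotes mRNA decay, had 279.7 CPM with mucin and 147.5 CPM with inulin, beside 275.4 to 435.7 CPM in WT monoculture. LZTS2 had 21.4 CPM with mucin and 9.08 CPM with inulin, on either side of 12.2 to 16.5 CPM in WT monoculture. Others among the 10 genes most in favour of mucin were MT-TL1, TMEM52B, RHOBTB2, CLPTM1, TGIF1, SEC61G and ENDOG. In favour of inulin, CHAF1B, a subunit of the histone chaperone CAF-1, had 9.45 CPM with mucin and 21.6 CPM with inulin, beside 13.8 to 18.1 CPM in WT monoculture. KATNA1, the microtubule-severing katanin subunit, had 32.2 CPM with mucin and 52.9 CPM with inulin, beside 21.4 to 30.6 CPM, and ZMAT3, a p53 target, had 30.6 CPM with mucin and 50.8 CPM with inulin, beside 24.9 to 29.9 CPM. NRIP3 (17.6 CPM with mucin and 29.7 CPM with inulin), DPY19L1, PARP16, GTF3C1, FER and KIF18A were also among the 10 genes most in favour of inulin.

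Set against WT coculture with F. prausnitzii in the same fit, 254 genes were higher with inulin or mucin without bacteria (1.93% of all genes) and 138 were lower (1.05%), 2.98% in either direction. This comparison uses the same inulin and mucin libraries as the one with WT monoculture, so the 2 results are not independent. The count also moved with single libraries. It was 12 and 0 without the inulin library, 45 and 2 without the mucin library, 136 and 172 without coculture library 3 and 77 and 32 without coculture library 20, and 43 and 3 with only these groups in the fit. CHAC1 had 28.4 and 28.6 CPM with inulin and mucin, against 5.31, 3.02 and 3.01 CPM in coculture (log2 fold change 2.88, adjusted p = 8.2e-05, edgeR), and CEBPB 108 and 117.5 CPM, against 32.3, 36.0 and 49.6 CPM (1.51, adjusted p = 0.00015, edgeR). SNORD13, a small nucleolar RNA gene, had 102.7 and 71.3 CPM, against 11.4, 15.6 and 21.8 CPM in coculture (2.41, adjusted p = 0.0023, edgeR), and 32.2, 41.7 and 38.1 CPM in WT monoculture. The NRF2 targets SRXN1 (9.85 and 9.68 CPM, against 2.66, 2.27 and 2.55 CPM in coculture) and MAFG (69.9 and 77.6 CPM, against 21.1, 26.7 and 34.5 CPM in coculture) also passed.

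The stool libraries, whose labels name the same inulin and mucin agars, give levels that the comparison above did not use. Of the 27 genes that rose, 23 were above all 3 libraries of coculture with F. prausnitzii in both stool libraries, the exceptions being DNAJC12, NXPE3, GPR155 and FICD, and 0 were below. Over all genes 12.9% lay above in this way. Of the 9 genes that fell, 7 were below all 3 coculture libraries in both stool libraries, FBXO9 and TOR1A being the exceptions, and 12.7% of all genes lay below. Stool coculture and coculture differ in bacteria as well as in the agar, and the stool and supplemented libraries may share a culture run. What sets these levels was not tested. ATP8A1 had 16.8 and 14.8 CPM in the stool libraries with inulin and mucin, against 26.8, 25.2 and 34.1 CPM in coculture, and GOLPH3L had 58.2 and 42.9 CPM, against 28.4, 25.9 and 29.0 CPM. DGAT2 had 15.9 and 10.1 CPM, against 9.20, 5.79 and 3.94 CPM in coculture, while in 2D wells its median was 51.6 CPM (44.2 to 58.5). HK1 had 18.4 CPM with inulin and 10.6 CPM with mucin in the stool libraries, against 6.95, 9.82 and 6.49 CPM in coculture.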

How the data were processed

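The authors deposited counts per Ensembl gene for 32 QuantSeq 3′ libraries of Caco-2 cells on GRCh38 (per the submitters' processing notes). No source used here gives the aligner, counting tool, strand setting or annotation. Of 60107 rows, 40995 were named through an identifier table and 15536 through GENCODE release 29, and unnamed rows held 0.0679% of the counts. After TMM normalization, edgeR's quasi-likelihood test was applied to 30 libraries in 10 groups fitted together without covariates (13151 genes after edgeR's filter on low counts, biological coefficient of variation 0.197, 20 residual degrees of freedom), two-sided, with Benjamini-Hochberg adjustment and a threshold of 0.05. CPM used TMM over all 32 libraries, and log2 levels a prior count of 2. Reads carry no molecular identifiers, so counting precision (4206769 to 5370193 counts in the 5 libraries) covers counting error only.

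Named genes were the 15 higher and 15 lower called genes with the smallest adjusted p, at least 5 CPM on average and groups that stay apart (8 lower genes passed, filled to 10), up to 4 members of each list by unadjusted p, HIF1A and IL18, and for mucin against inulin the 10 largest differences in each direction, of which 1 is not reported here. The libraries and gene lists were chosen with earlier results of these data known. The stool positions were compared after seeing the data. Promoters are RefSeq, GRCh38.p14. Alternatives were DESeq2, the exact test, no filter, other factors, other sets of libraries, the mitochondrial genes left out or their share as a covariate, and leaving out each library. The steps were tested on simulated counts. Python 3.11.15 (with matplotlib 3.10.9, numpy 2.4.6, pandas 2.3.3 and scipy 1.17.1) and R 4.3.3 (with DESeq2 1.42.0, edgeR 4.0.16 and limma 3.58.1) were used.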

Additional observations from a re-analysis of the deposited data

Results flagged for a closer look

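In 6 of the genes named here the inulin and mucin libraries lay on opposite sides of all 3 WT monoculture libraries. These 6 were named for large differences between mucin and inulin, beyond the range of the WT monoculture libraries. That choice itself favours such a pattern, so the count is no result about these genes. With 1 library each for inulin and mucin, the differences were not tested. The log2 difference of mucin minus inulin was 1.20 for LZTS2, 0.87 for RHOBTB2, 0.81 for CLPTM1, 0.81 for TGIF1 and 0.79 for ENDOG, higher with mucin, and -1.16 for CHAF1B, lower with mucin.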

How the results depend on the processing

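No paired analysis was possible because the labels name neither pairs nor culture runs. Counts are given as higher and lower with inulin or mucin. Against WT monoculture they were 87 and 78 with DESeq2, 87 and 54 with edgeR's exact test, 168 and 119 without a filter on low counts (166 and 93 with both supplemented libraries outside the WT monoculture range), 186 and 80 with the mitochondrial share as a covariate, 14 and 5 with 12 WT libraries in the fit, 0 and 0 with only the groups compared, and 69 and 38 with DESeq2 on these 5 libraries, added after the data were seen. Leaving out 1 library gave 1 to 15 higher and 0 to 4 lower. Against coculture, lower genes numbered 264 with DESeq2 and 56 with 12 WT libraries, the counts were 442 and 226 without the filter, 850 and 428 with the covariate and 43 and 3 with only the groups compared, and leaving out 1 library gave 12 to 268 higher and 0 to 172 lower. The cause of these shifts was not tested. Upper-quartile and RLE factors, all 32 libraries and leaving out mitochondrial genes kept the counts within 1.5 times. All 36 called genes kept their direction in every setting that could be fitted. In each of them both supplemented libraries already lay outside the WT monoculture range. Refits of these libraries, or without 1 of them, could thus hardly turn a direction, and the kept direction is no test of the calls. Each gene passed in 7 to 14 of up to 16 settings.

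Among genes that were not called, the log2 fold change of TGIF1 turned to 0.0035 with upper-quartile factors and that of CLPTM1 to -0.029 with the covariate. With 1 library left out, it ran between -0.15 and 0.20 for HIF1A, -0.48 and 0.35 for TGIF1, -0.37 and 0.46 for CLPTM1, -0.57 and 0.22 for SEC61G, -0.25 and 0.62 for DPY19L1, -0.60 and 0.64 for LZTS2, -0.76 and 0.43 for CHAF1B, -0.50 and 0.40 for RHOBTB2, -0.29 and 0.52 for ENDOG, -0.74 and 0.036 for GTF3C1, and -0.67 and 0.058 for KIF18A.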

Other observations

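Of 13 iron handling genes tested, 4 lay above and 2 below the WT monoculture range in both supplemented libraries (15.9 and 16.1% of all genes), 5 had a negative fold change, the median log2 fold change was 0.04, and 0 were called by edgeR's quasi-likelihood test, its exact test or DESeq2, with an unadjusted p under 0.05 in 3. IREB2, an iron-responsive RNA-binding protein, had 185.2 and 178.7 CPM with inulin and mucin, against 248.7, 233.1 and 212.8 CPM in WT monoculture. NCOA4, the receptor that takes ferritin to autophagy, had 256.3 and 216.9 CPM with inulin and mucin, against 124.1, 182.5 and 161.7 CPM in WT monoculture (log2 fold change 0.60 ± 0.19, adjusted p = 0.143, edgeR), and SLC40A1, the iron exporter ferroportin, had 205.3 and 207.2 CPM, against 134.1, 136.8 and 167 CPM. CA2, a cytosolic carbonic anhydrase, had 22.8 and 29.0 CPM, against 14.5, 12.5 and 18.5 CPM. Of 16 acid-base genes tested, 8 lay above and 2 below the WT monoculture range in both supplemented libraries, beside 15.9 and 16.1% of all genes, with 0 called by edgeR's quasi-likelihood test, its exact test or DESeq2 and 6 with an unadjusted p under 0.05. AMD1, which supplies the aminopropyl donor of polyamine synthesis, had 313.8 and 291.6 CPM, against 221.7, 250.3 and 194.9 CPM in WT monoculture, and 6 of 13 polyamine genes lay above the range and 1 below (0 called by any of the 3 tests, 2 with an unadjusted p under 0.05).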
